A study of Arabidopsis thaliana with 16 samples.

Results

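The genes described here carry nitrogen from nitrate into glutamine and glutamate in cell suspension cultures of Arabidopsis thaliana Col-0. They are 10 named genes, listed by gene identifier, of the 28598 genes in the count table. Earlier results of these data were known when they were chosen. NIA1 (AT1G77760) and NIA2 (AT1G37130) encode nitrate reductase and NIR1 (AT2G15620) encodes nitrite reductase. Glutamine synthetase is encoded by GLN2 (AT5G35630) for the plastid and by GLN1;1 (AT5G37600), GLN1;2 (AT1G66200) and GLN1;3 (AT3G17820) for the cytosol. RefSeq names these cytosolic genes ATGSR1 (a synonym), GSR2 and GLN1.3 in the same order, and those names are used from here on. Glutamate synthase is encoded by GLU1 (AT5G04140) and GLU2 (AT2G41220), whose enzymes take electrons from ferredoxin, and by GLT1 (AT5G53460), whose enzyme uses NADH.

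RNA-seq was performed on 4 light-grown and 4 dark-grown libraries of this wild-type cell line, kept in Gamborg's B5 medium with 3% sucrose at 23 °C and passaged every 7 days. Light-grown cells were under constant light, whereas flasks of dark-grown cells were wrapped in foil for 2 weeks. All 8 libraries are given as taken 16 h after passage, although the protocol also lists a longer interval for some light-grown cells. The cells are a single cultured line fed with sugar, not leaves or roots of a plant. The paper's results describe 8 replicate cultures, 4 per growth condition, whereas its protocol speaks of duplicate cultures. The p-values measure the spread between these libraries, which may in part be technical. Another 8 samples of MNase-treated chromatin were not analysed here.

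In plants, nitrate is reduced to nitrite by nitrate reductase in the cytosol, and nitrite is reduced to ammonium by nitrite reductase inside the plastid with electrons from ferredoxin. Glutamine synthetase joins ammonium to glutamate, and glutamate synthase then returns glutamate from glutamine and 2-oxoglutarate. In leaves, ferredoxin is reduced by photosystem I, whereas in roots and other non-green tissue its electrons come from NADPH of the oxidative pentose phosphate pathway through root-type ferredoxin reductase.

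Several of these enzymes come from families of similar genes, so their coding sequences were compared first, because reads of 1 isoform could be counted on another. ATGSR1 and GSR2 were the closest pair, with 87.5% of aligned coding bases identical and a longest identical run of 44 bases. The stretch around that run is shown, 60 coding bases from each isoform with a level above a few counts, including GLN1;4 (AT5G16570). Capitals mark bases that differ from ATGSR1, and GSR2 differed at 3 positions, GLN1.3 at 12, GLN1;4 at 11 and GLN2 at 20.
ATGSR1: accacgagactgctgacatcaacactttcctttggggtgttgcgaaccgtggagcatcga
GSR2: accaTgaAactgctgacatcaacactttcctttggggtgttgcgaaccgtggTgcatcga
GLN1.3: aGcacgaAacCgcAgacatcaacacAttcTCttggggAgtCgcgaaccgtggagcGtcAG
GLN1;4: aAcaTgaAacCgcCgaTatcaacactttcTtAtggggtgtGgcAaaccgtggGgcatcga
GLN2: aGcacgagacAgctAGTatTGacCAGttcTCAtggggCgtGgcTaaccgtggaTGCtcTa
In RefSeq TAIR10.1 these stretches lie at chr5:14933702-14933858 on the minus strand, chr1:24655648-24655789 on the minus strand, chr3:6099227-6099286 on the plus strand, chr5:5422026-5422234 on the minus strand and chr5:13832838-13832983 on the plus strand. All but that of GLN1.3 are joined across an intron. The other pairs of glutamine synthetase genes shared 71.1% to 79.3% of their coding bases.

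NIA1 and NIA2 shared 74.1% of coding bases, with no identical run longer than 20 bases. That run is the middle of the stretch shown, from 1 exon of each gene, at chr1:14159185-14159244 on the plus strand for NIA2 and chr1:29238722-29238781 on the minus strand for NIA1. Capitals mark the 12 bases at which NIA1 differs from NIA2.
NIA2: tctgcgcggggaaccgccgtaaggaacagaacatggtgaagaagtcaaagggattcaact
NIA1: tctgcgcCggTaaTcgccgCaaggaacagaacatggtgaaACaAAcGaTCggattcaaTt
GLU1 and GLU2 shared 76.8% of coding bases. None of the 50-base windows within single exons of the 10 genes occurred unchanged anywhere else in the genome, and 50 bases is the length of 1 read. Windows across exon junctions, as in the stretch of ATGSR1 and GSR2 shown above, were not covered. Nor were matches with differing bases, so reads counted on another isoform are not excluded. For GLU1, 1.438% of exon bases overlap AT5G04150 on the opposite strand, and for GLT1, 1.666% are shared with AT5G53470 on the same strand. Whether counting used strand is not given in the sources used here, so reads of these overlaps cannot be told apart.

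Light-grown libraries held 18363149 to 37813411 counts and dark-grown libraries 29916585 to 32688689, and together the 10 genes took 0.158% to 0.346% of the counts of a library. The smallest level that 3 counts can show was 0.0779 to 0.159 CPM (counts scaled to a common library total with TMM factors), below the lowest level of any of the 10 genes. Light-RNA4 and Dark-RNA2 stood apart: on the first axis of a multidimensional scaling of all genes they lay at -0.71 and 0.69, whereas the other light-grown libraries lay between -2.60 and -1.91 and the other dark-grown libraries between 2.18 and 2.42. Light-RNA4 was also the library with the fewest counts, 18363149. Dark-RNA2 had the lowest TMM factor, 0.94, but the most counts of the dark-grown libraries. The part of depth and scaling in their position was not tested. For the 10 genes and the lists around them, calls that change without both libraries are given beside the main values. Both libraries were picked from these same data for lying nearest the other growth condition. Leaving them out widens the separation on that axis by construction, so calls gained that way are not independent support. Libraries were compared with the quasi-likelihood test of edgeR, with p adjusted by Benjamini-Hochberg over all genes tested and a threshold of 0.05.

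Of the 10 genes, only NIR1 passed the threshold in the dark against light comparison, and it was higher in dark-grown cells. All 10 passed the filter on low counts. Over all 19129 genes tested, 10.0% were called, 3.69% higher and 6.31% lower in the dark, so 1 called gene of 10 is no more than the background. In NIR1 alone did the levels of the growth conditions not overlap, against 16.6% of all genes tested. The 10 log2 fold changes split into 5 above and 5 below 0, with a median of -0.02 beside a median of 0 for all genes tested. Fewer cells that express a gene and less RNA per cell cannot be told apart in these bulk libraries.

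**Figure D1:**
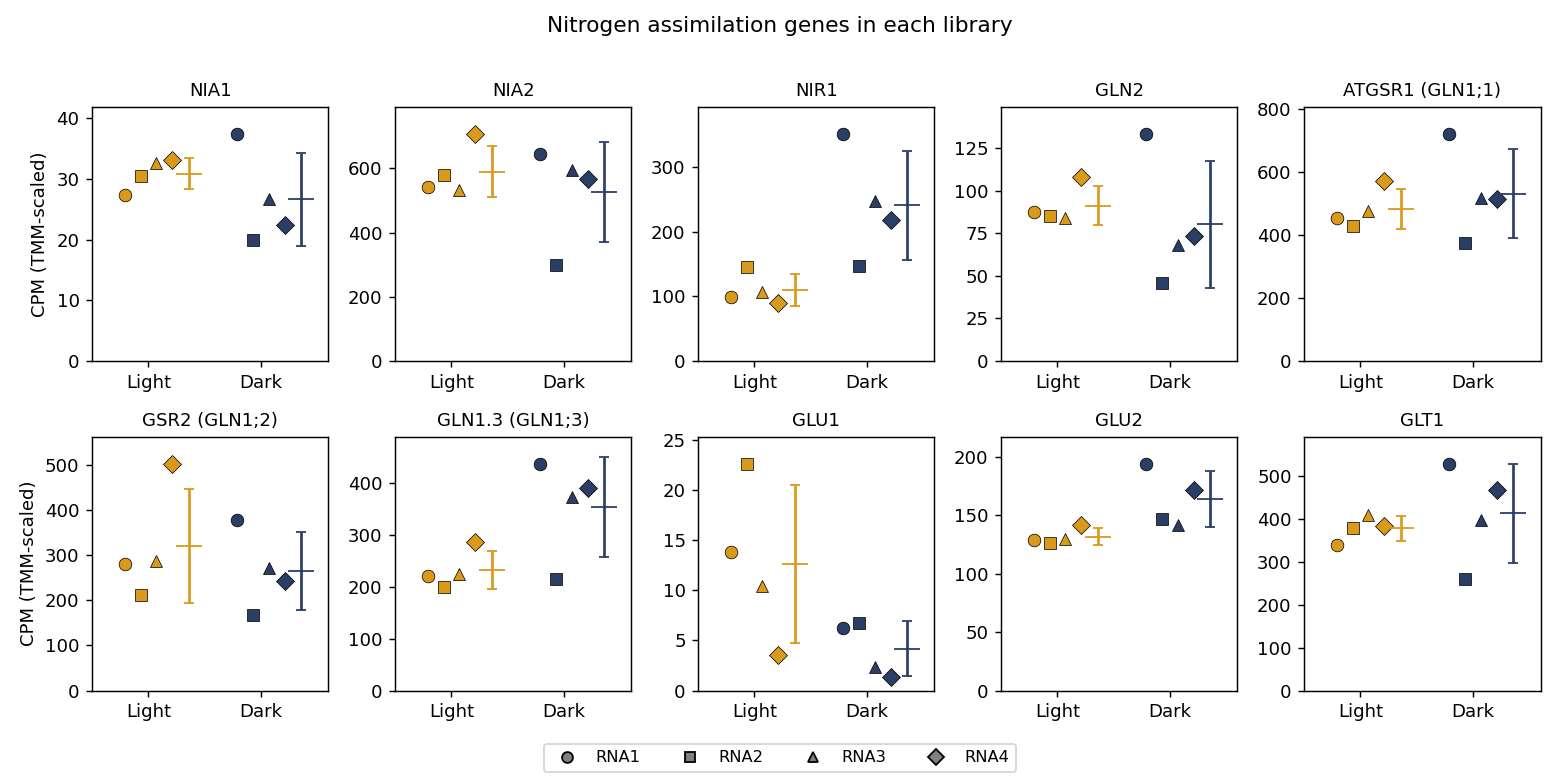
Level of each of the 10 genes (y axis, CPM from 0, TMM-scaled) in the light-grown and dark-grown libraries (x axis). Each symbol is 1 library, with the mean and SD of 4 libraries beside it. Only in the NIR1 panel do all dark-grown libraries (147 to 351 CPM) lie above all light-grown libraries (89.5 to 145 CPM), and Dark-RNA2 is the lowest dark-grown library in 8 panels.

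Nitrate reductase, the first enzyme of the pathway, was carried almost entirely by NIA2. NIA2, at chr1:14158452-14161938, held 542, 580, 531 and 706 CPM in Light-RNA1 to Light-RNA4 and 644, 300, 595 and 567 CPM in Dark-RNA1 to Dark-RNA4. The conditions overlapped, and Dark-RNA2 was the lowest of all 8 libraries. Dark against light, the log2 fold change was -0.16 with an SE of 0.23 and a 95% interval from -0.68 to 0.35 (adjusted p = 0.714). Without Dark-RNA2 it was 0.03, so no direction can be given for NIA2.

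NIA1, the minor isoform at chr1:29235721-29239484, held 27.4, 30.5, 32.6 and 33.1 CPM in the light-grown and 37.4, 19.9, 26.8 and 22.5 CPM in the dark-grown libraries. Both the highest and the lowest of the 8 values were in dark-grown libraries. Its log2 fold change was -0.21 with a 95% interval from -0.64 to 0.22 (adjusted p = 0.545). When levels are divided by exon length, NIA2 made up 94.9% ± 0.562 (SD, n = 4) of nitrate reductase transcript in light-grown and 95% ± 1.11 (SD, n = 4) in dark-grown libraries, so the shares differed by less than the spread between libraries.

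NIR1, which encodes the enzyme for the reduction of nitrite to ammonium, was 2.19-fold higher in the dark. It lies at chr2:6810395-6812941 and held 98.5, 145, 107 and 89.5 CPM in the light-grown libraries. The dark-grown libraries held 351, 147, 248 and 219 CPM. Mean levels were 110 ± 24.4 CPM in the light and 241 ± 84.5 CPM in the dark (SD, n = 4 each). The gap between conditions was narrow, since Dark-RNA2 with 147 CPM lay just above Light-RNA2 with 145 CPM. In the edgeR fit the log2 fold change was 1.13 with an SE of 0.26 and a 95% interval from 0.53 to 1.73 (adjusted p = 0.0296). The exact two-sided permutation test of the log2 level gave p = 0.029, the smallest that 4 libraries against 4 allow. The change was between 0.90 and 1.31 when single libraries were left out, but the adjusted p rose to 0.0885 without Light-RNA1, 0.0942 without Light-RNA3, 0.0796 without Dark-RNA3 and 0.0621 without Dark-RNA4. Without both Light-RNA4 and Dark-RNA2 the log2 fold change was 1.22 (adjusted p = 0.00853).

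As the single gene of the 10 that was called, NIR1 is shown with the 250 bases before its annotated start, at chr2:6810145-6810394 on the plus strand of RefSeq TAIR10.1. The window from 250 bases before to 50 after the start was searched on both strands for the G-box CACGTG, the I-box core GATAAG and both parts of a nitrate-responsive element, GACCCTT and AAGAG. None of these letters occurred there, so no base is in capitals. Only exact letters in this window were searched, so a variant match or an element further upstream would be missed.
NIR1 upstream: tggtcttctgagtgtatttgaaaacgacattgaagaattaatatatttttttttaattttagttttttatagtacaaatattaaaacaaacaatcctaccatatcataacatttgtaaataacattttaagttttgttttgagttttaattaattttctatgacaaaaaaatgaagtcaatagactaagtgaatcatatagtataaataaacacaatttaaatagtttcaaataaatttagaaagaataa
Over the windows of all 10 genes, CACGTG and GACCCTT were found in 0, against 7.68% and 1.36% of 27443 promoters. GATAAG was found in 1, that of GLT1, against 14.6%, and AAGAG was found in 6, against 61.4%.

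Set against nitrate reductase within the same library, NIR1 was separated more widely than by its own level. The ratio of NIR1 to NIA2, both per exon length, was 0.266, 0.365, 0.295 and 0.185 in the light-grown and 0.797, 0.717, 0.61 and 0.564 in the dark-grown libraries. In this ratio, Dark-RNA2 lay with the other dark-grown libraries and Light-RNA4 with the light-grown. NIR1 to NIA1 also did not overlap, from 3.89 to 6.83 in the light and from 10.7 to 14.0 in the dark. These ratios were chosen after the level of NIR1 was known and were not tested.

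**Figure D2:**
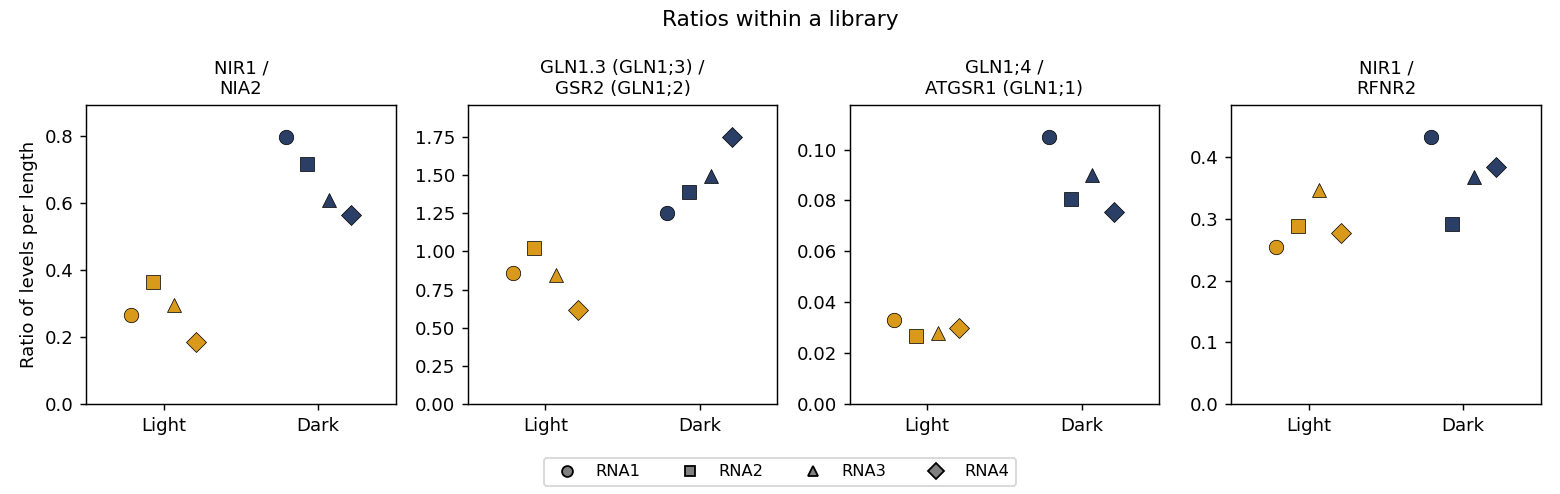
Ratios of levels per exon length within each library (y axes from 0) for light-grown and dark-grown libraries (x axes), with 1 symbol per library. NIR1 over NIA2 is at most 0.365 in the light and at least 0.564 in the dark. The plotted ratios GLN1.3 over GSR2 and GLN1;4 over ATGSR1 do not overlap either, and not every pair of isoforms is shown. NIR1 over RFNR2 overlaps.

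Genes that supply nitrite reductase with its cofactor and its electrons also include some that rose. UPM1, which makes the precursor of siroheme, the haem-like cofactor of nitrite reductase, held 40.5, 53.4, 46.9 and 33.7 CPM in the light and 90.4, 51.6, 80.7 and 70.8 CPM in the dark. On the log2 scale it rose by 0.75 with an SE of 0.20 (adjusted p = 0.0464), although Dark-RNA2 lay below Light-RNA2. The call was lost in 7 of the 8 fits without 1 library, all but that without Dark-RNA2, and 7.455% of UPM1 exon bases overlap a gene on the opposite strand. SIRB, which inserts iron to complete siroheme and was the other gene of this list, had a log2 fold change of -0.06 (adjusted p = 0.865).

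Over all genes tested, 3.69% were called higher in the dark and 6.31% lower. Of 4 root-type ferredoxin and reductant genes, 3 were called higher in the dark and 0 lower, with a median log2 fold change of 0.60. RFNR2, a root-type ferredoxin reductase and the most abundant of the 4 per length, held 278, 359, 222 and 232 CPM in the light and 582, 364, 484 and 409 CPM in the dark. Its rise was 0.75 on the log2 scale, with an SE of 0.19 (adjusted p = 0.0437). As with NIR1, the conditions were separated only by the small step from Light-RNA2 to Dark-RNA2. G6PD3, a plastidic glucose-6-phosphate dehydrogenase of the oxidative pentose phosphate pathway, had a log2 fold change of 0.80 with an SE of 0.21 (adjusted p = 0.0445), from 67.2 to 98.3 CPM in the light and from 109 to 195 CPM in the dark. Of its exon bases, 5.571% overlap genes on the opposite strand. FD3, a root-type ferredoxin, changed by 0.44 with an SE of 0.10 (adjusted p = 0.0314). RFNR1, the second reductase, had a log2 fold change of 0.09 (adjusted p = 0.779). These calls are fragile, since 0 of the 4 genes were called without Light-RNA1, Light-RNA3, Dark-RNA3 or Dark-RNA4, or when library totals replaced TMM scaling.

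All 4 leaf-type ferredoxin and reductase genes were called lower in the dark, against 6.31% of all genes tested. Their median log2 fold change was -2.66, and these calls held in all 8 fits without 1 library. FD2, the main leaf ferredoxin, had the highest mean per length of the 4 over all libraries. It held 118 to 173 CPM in the light and 7.82 to 14.2 CPM in the dark (log2 fold change -3.61, adjusted p = 9.27e-05). In the dark FD1 lay above FD2, with means of 29.7 and 11.9 CPM per kb of exon. FD1 had a log2 fold change of -1.71 (adjusted p = 0.000514). LFNR2, a leaf-type ferredoxin reductase, had 1 to 4 counts in each dark-grown library, and its log2 fold change of -7.22 (adjusted p = 9.27e-05) rests on those few counts. NIR1 and the leaf-type genes thus moved in opposite directions between the same libraries.

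Ammonium is joined to glutamate by glutamine synthetase, and here none of the 4 glutamine synthetase genes among the 10 passed the threshold, whereas the shares of GSR2, GLN1.3 and GLN1;4 did not overlap between conditions. ATGSR1, at chr5:14933286-14935885, was the most abundant isoform, with 455, 428, 475 and 571 CPM in the light and 719, 375, 516 and 513 CPM in the dark. The conditions overlapped fully, and the log2 fold change of 0.14 (95% interval from -0.29 to 0.57, adjusted p = 0.714) was -0.04 without Dark-RNA1.

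GSR2, at chr1:24655115-24657703, held 280, 211, 288 and 502 CPM in the light and 378, 168, 271 and 242 CPM in the dark. Light-RNA4 was by far the highest library, and the log2 fold change of -0.27 (95% interval from -0.98 to 0.44, adjusted p = 0.651) was 0.03 without it. GLN1.3, at chr3:6097201-6099595, held 221, 199, 224 and 286 CPM in the light and 437, 215, 374 and 391 CPM in the dark. Of the dark-grown libraries, 3 lay above every light-grown library, and Dark-RNA2 lay among the light-grown. Its log2 fold change was 0.61 with an SE of 0.22 and a 95% interval from 0.12 to 1.10 (adjusted p = 0.118). Without Dark-RNA2 it was 0.79 and was called (adjusted p = 0.00817), and without both Light-RNA4 and Dark-RNA2 it was 0.91 (adjusted p = 0.00103). Since these libraries were picked from the same data, those calls are not independent support for GLN1.3. With DESeq2 on all libraries, GLN1.3 was also called (adjusted p = 0.0471), so its call depended on the test used as well.

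GLN2, the plastid isoform at chr5:13830429-13833542, which in leaves takes up ammonium from nitrite reduction and photorespiration, held 87.3, 85.2, 83.9 and 108 CPM in the light. The dark-grown libraries held 133, 45.9, 68.1 and 73.4 CPM and thus both the highest and the 3 lowest values. Dark against light, its log2 fold change was -0.18 (95% interval from -0.84 to 0.47, adjusted p = 0.753) and 0.01 without Dark-RNA2.

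GLN1;4, a cytosolic isoform outside the 10 genes, was the isoform with a clear call. It held 15.9, 12.1, 14.2 and 18 CPM in the light and 80.3, 32, 49.2 and 41.1 CPM in the dark. No dark-grown value fell into the light-grown range, and the fitted level rose by a log2 fold change of 1.75, or 3.37-fold (SE 0.28, adjusted p = 0.00611). The call held in all 8 fits without 1 library. GLN1;5 (AT1G48470) did not pass the filter on low counts.

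Per exon length, ATGSR1 made up 44.2% ± 3.16 of glutamine synthetase transcript in the light and 42.7% ± 2.11 in the dark (SD, n = 4 each). GSR2 took 21.9% to 33.0% in light-grown and 18.5% to 21% in dark-grown libraries, with no overlap. GLN1.3 took 20.4% to 22.4% in the light and 26.3% to 32.4% in the dark, again with no overlap. GLN1;4 took 1.18% to 1.46% in the light and 3.14% to 4.46% in the dark. GLN2 took 6.32% ± 0.617 in the light and 4.69% ± 0.835 in the dark (SD, n = 4 each), with overlap. Dark-RNA2, in which the levels of most of these genes were low, lay inside the range of the other dark-grown libraries for GLN2, GSR2, GLN1.3 and GLN1;4, and was the highest of them for ATGSR1. Shares of 1 enzyme sum to 100% in a library and are not independent, and they were not tested.

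**Figure D3:**
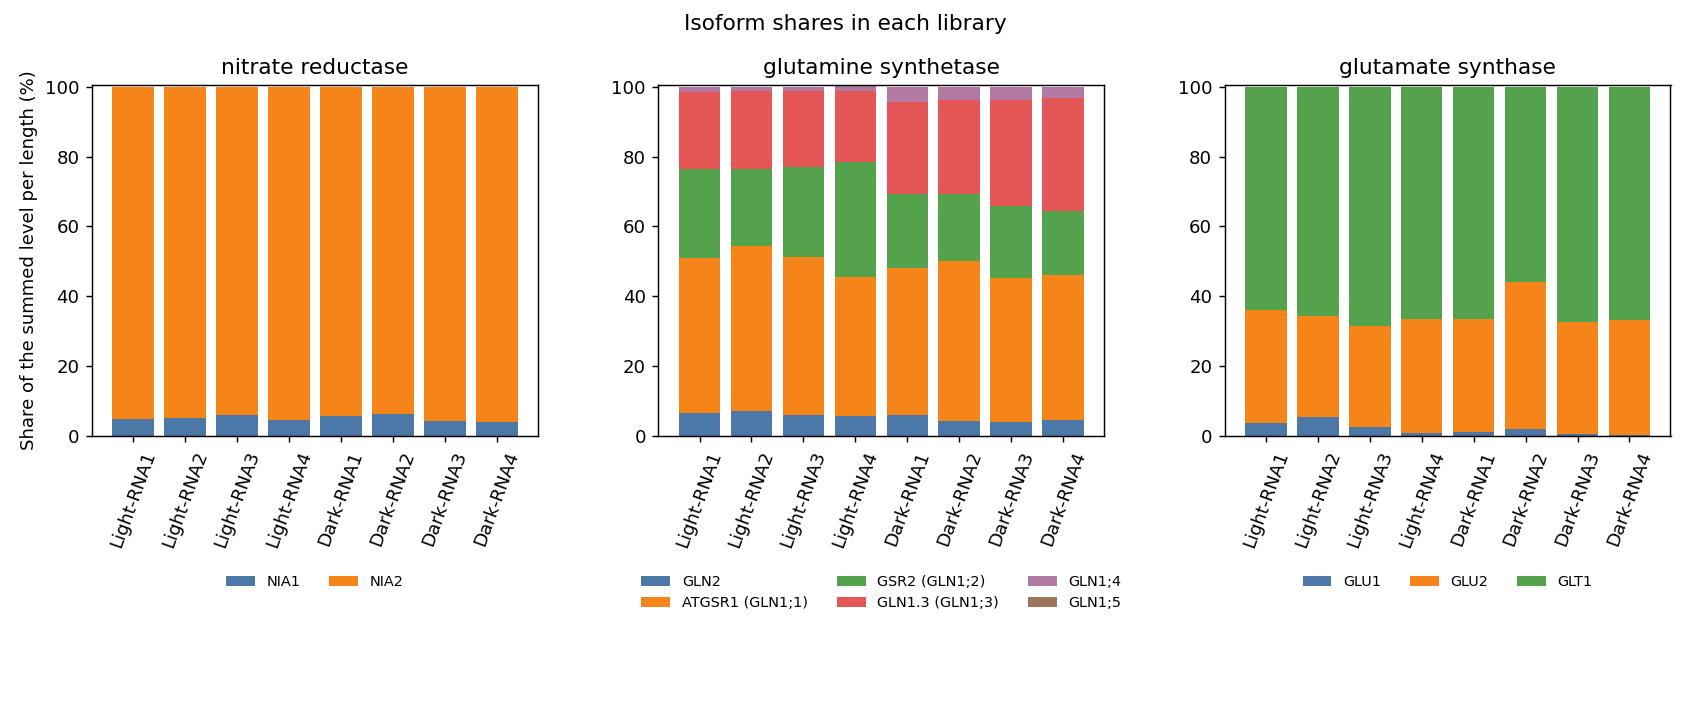
Share of each isoform in the summed level per exon length of its enzyme (y axis, percent) in each of the 8 libraries (x axis), for nitrate reductase, glutamine synthetase and glutamate synthase. NIA2 makes up 93.7% to 96.1% of nitrate reductase in every library, GLN1.3 takes more of glutamine synthetase in all dark-grown libraries, and GLU1 is at most 5.42% of glutamate synthase.

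Glutamate synthase transcript came mostly from GLT1, the NADH form, at chr5:21700187-21710296. GLT1 held 339, 379, 410 and 384 CPM in the light and 528, 260, 397 and 468 CPM in the dark. The conditions overlapped, and the log2 fold change of 0.13 (95% interval from -0.32 to 0.58, adjusted p = 0.748) was -0.01 without Dark-RNA1. Its share per exon length was 66.2% ± 1.90 in the light and 64.2% ± 5.51 in the dark (SD, n = 4 each), with the lowest share, 56.0%, in Dark-RNA2.

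GLU2, a ferredoxin form known from roots, lies at chr2:17177539-17188836 and was the steadiest of the 10 genes in the light. It held 129, 126, 130 and 142 CPM in light-grown and 194, 147, 142 and 172 CPM in dark-grown libraries, so that the conditions met at 142 CPM. GLU2 had a log2 fold change of 0.32 with an SE of 0.11 and a 95% interval from 0.06 to 0.57 (adjusted p = 0.123). The exact two-sided permutation test gave p = 0.057.

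GLU1, the main ferredoxin form of leaves, at chr5:1129785-1138488, had the largest fold change in size of the 10 genes and the lowest level. It held 13.8, 22.6, 10.4 and 3.60 CPM in the light and 6.29, 6.71, 2.39 and 1.33 CPM in the dark. Light-RNA4 lay among the dark-grown libraries, and the light-grown libraries were widely spread. GLU1 had a log2 fold change of -1.60 with an SE of 0.64 and a 95% interval from -3.06 to -0.13 (adjusted p = 0.163). Without both Light-RNA4 and Dark-RNA2 it was -2.22 and was called (adjusted p = 0.0348). GLU1 made up 0.866% to 5.42% of glutamate synthase per exon length in the light and 0.263% to 2.00% in the dark.

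**Figure D4:**
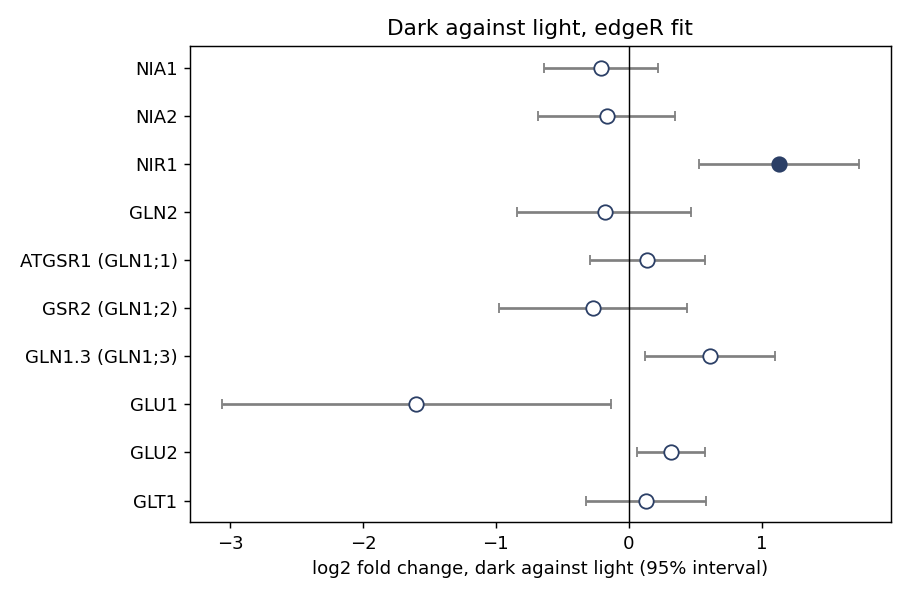
Log2 fold change, dark against light, of the 10 genes (x axis), with 95% intervals from the edgeR fit over 4 and 4 libraries. The filled point passed the threshold and open points did not: NIR1 at 1.13 is filled, the intervals of GLN1.3, GLU2 and GLU1 also leave out 0 before adjustment, and the other 6 intervals include 0.

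On the scale of CPM per kb of exon, which allows genes to be compared, the pathway was expressed at high level apart from NIA1 and GLU1. ATGSR1 had the highest mean, 304 ± 39.1 in the light and 334 ± 89.4 in the dark (SD, n = 4 each), above 98.6% of 19074 genes. GSR2 (190 ± 74.8), NIA2 (184 ± 25.0) and GLN1.3 (149 ± 24.1) followed in the light, with means within the spread between libraries, although NIA2 lay above GLN1.3 in each of the 4 light-grown libraries. In the dark GLN1.3 (228 ± 62.1) lay above NIA2 (164 ± 48.1) and GSR2 (157 ± 51.7) within each of the 4 libraries, while the ranges over libraries overlapped. NIR1 (50.2 ± 11.1), GLT1 (49.6 ± 3.82) and GLN2 (43.3 ± 5.35) formed the next level in the light and also lay within their spread of each other. In the dark NIR1 had a mean of 110 ± 38.5, whereas GLT1 had 54.2 ± 15.2 and GLN2 38.1 ± 17.7. GLU2 was at 22.9 ± 1.22 in the light and 28.6 ± 4.23 in the dark. NIA1 ranged from 8.68 to 10.5 in the light and from 6.30 to 11.9 in the dark, near the middle of the 19074 genes. GLU1, at 2.29 ± 1.43 in the light and 0.76 ± 0.495 in the dark, lay above only 14.3% of them. The 19074 genes are those that passed the filter on low counts and had an exon length.

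The levels of these genes varied together among dark-grown libraries. Dark-RNA1 was the highest dark-grown library for 9 of the 10 genes, against 28.9% of all genes tested, and Dark-RNA2 was the lowest for 8, against 34.4%. Both held at once for 8 genes, against 15.7% of all genes, and in these Dark-RNA1 was 1.88 to 2.90 times Dark-RNA2, whereas the median of this ratio over all genes tested was 0.999. The exceptions were GLU1, highest in Dark-RNA2 and lowest in Dark-RNA4, and GLU2, lowest in Dark-RNA3. Among light-grown libraries Light-RNA4 was the highest for 7 of the 10 genes, and the lowest for NIR1 and GLU1, against 32.5% and 38.1% of all genes tested. The coefficient of variation was larger in the dark for 9 of the 10 genes, and for 11764 of all 19129 genes tested. Its median over the 10 genes was 29.1% in the dark against 13.2% in the light, beside 18.6% and 14.7% over all genes tested.

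Genes around the pathway were read from the same fit in lists by role. These lists were chosen with earlier results of these data known. Beside their counts, 3.69% of all genes tested were called higher and 6.31% lower. Of 13 nitrate transport genes, 10 were tested, 2 were called higher and 2 lower, with a median log2 fold change of -0.16. NRT1.2, a nitrate transporter of the plasma membrane, rose by 0.66 (adjusted p = 0.0102), and CLCB, a chloride channel family member, by 0.79 (adjusted p = 0.0273). NRT2.7, the vacuolar transporter known from seeds, changed by -1.37 (adjusted p = 0.0153), and NRT2.5, a high-affinity transporter, by -0.99 (adjusted p = 0.0427). The calls of NRT1.2 and NRT2.7 held in all 8 fits without 1 library, that of CLCB in 3 and that of NRT2.5 in 2. NRT2.1, the main high-affinity transporter and the highest of the list per length, had a log2 fold change of 0.53 (adjusted p = 0.369). NRT2.6, named after its values were seen, held 76.3 to 284 CPM in the light, but 365, 67.3, 1.29 and 0.762 CPM in Dark-RNA1 to Dark-RNA4, the widest range of the list. NRT2.4 was at 0 counts in every library, and NRT3.2 could not be analysed because its identifier has no row in the count table.

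**Figure D5:**
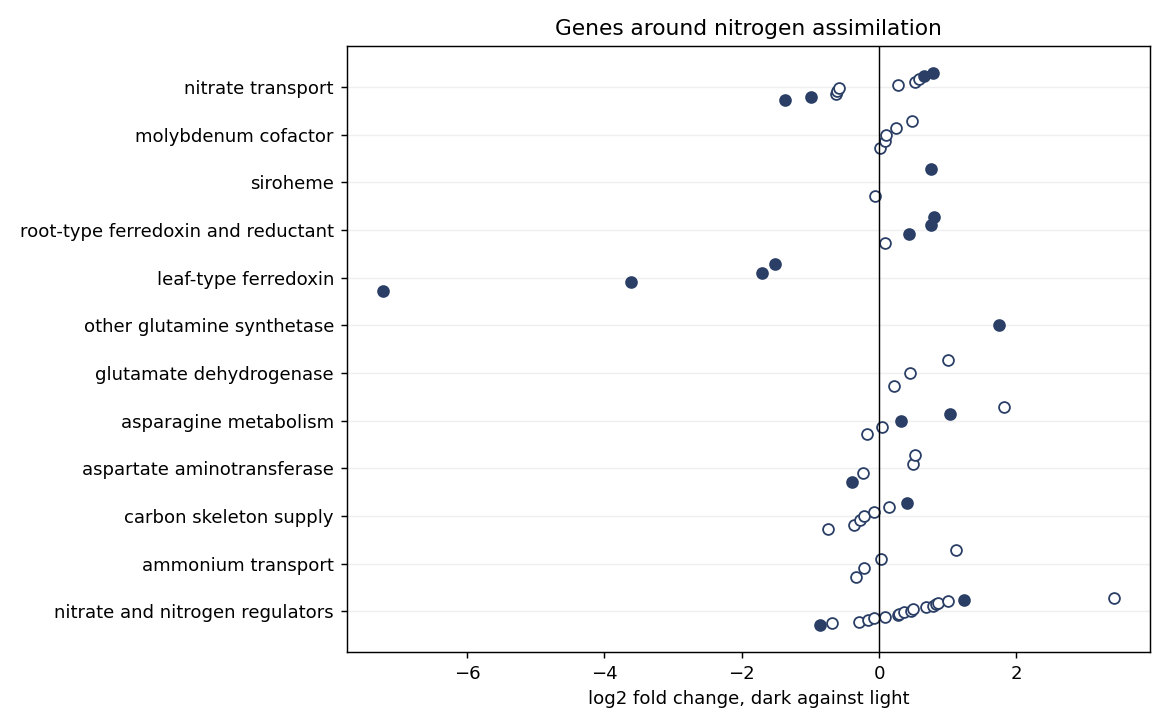
Log2 fold change, dark against light (x axis), of the tested genes around nitrogen assimilation, in rows by role (y axis). Filled points passed the threshold (adjusted p under 0.05) and open points did not. All 4 leaf-type ferredoxin genes lie at -1.52 or below, 3 of 4 root-type genes are called above 0, and the open point at 3.42 is BT2.

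Ammonium transporters gave 0 calls among 4 tested of 6, with a median of -0.09, and AMT1;1 was the highest per length (log2 fold change -0.22, adjusted p = 0.467). Molybdenum cofactor genes, which make the cofactor of nitrate reductase, gave 0 calls among 5 tested of 6, and all 5 lay between 0.02 and 0.48 on the log2 scale. CNX1, which inserts molybdenum and had the highest level of that list per length, was at 0.25 (adjusted p = 0.172). Genes at 0 counts in every library were AMT1;2, AMT1;5 and CNX7.

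All 3 glutamate dehydrogenase genes were tested and 0 were called, with a median of 0.45. GDH2, the highest per length, was at 0.45 (adjusted p = 0.352). Of 5 asparagine genes, 2 were called higher: ASPGB1, an asparaginase, by 1.04 (adjusted p = 0.00385), which held in all 8 fits without 1 library, and ASN3, an asparagine synthetase, by 0.32 (adjusted p = 0.0265), which held in 3. ASN2, the abundant asparagine synthetase, held 270 to 318 CPM in the light and 294 to 318 CPM in the dark. The difference on the log2 scale was 0.05 with an SE of 0.08 (adjusted p = 0.787). ASN1, the isoform known to be induced by darkness in plants and named here after its values were seen, held 1.04 to 3.48 CPM in the light and 26.9, 2.31, 3.61 and 2.02 CPM in the dark, so its log2 fold change of 1.82 (adjusted p = 0.249) rests on Dark-RNA1.

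Of 4 aspartate aminotransferase genes, ASP5, the plastid form, was called lower with -0.39 (adjusted p = 0.0236), and ASP2, the cytosolic form and the highest per length, was at 0.52 (adjusted p = 0.0649). Of 7 genes for carbon skeletons, CICDH, the cytosolic isocitrate dehydrogenase that makes 2-oxoglutarate, was both the highest per length and the single call, with 0.41 (adjusted p = 0.0314). The call of ASP5 held in 5 and that of CICDH in 3 of the 8 fits without 1 library. All 18 regulators of nitrate and nitrogen responses were tested, with 1 called in each direction and a median of 0.42. TGA1, a bZIP factor of the nitrate response, rose by 1.23 (adjusted p = 0.0491, called in 2 of 8 fits), and NLP8, known from nitrate-promoted germination, changed by -0.86 (adjusted p = 0.0178, called in 4 of 8). NIGT1.1, a repressor of nitrate transporter genes and the highest of the list per length, was at 0.69 (adjusted p = 0.0659). BT2, named after its values were seen, had the largest difference, 3.42 (adjusted p = 0.0542), with 1.40 to 8.38 CPM in the light and 9.93 to 144 CPM in the dark.

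Without both Light-RNA4 and Dark-RNA2, 4850 of 19252 genes tested were called, and calls in several lists rose with them. As these libraries were picked from the same data, the added calls are not independent support. Among the regulators 9 of 18 were then called, with TGA1 at 1.71 (adjusted p = 0.000119) and BT2 at 3.55 (adjusted p = 0.0301). GDH2 was at 0.87 (adjusted p = 0.00281), the single call among glutamate dehydrogenase genes. Aspartate aminotransferase genes gave 3 calls, including ASP2 at 0.56 (adjusted p = 0.0464), carbon skeleton genes 2, molybdenum cofactor genes 2, including CNX1 at 0.35 (adjusted p = 0.0193), and ammonium transporters 1. Nitrate transport genes gave 5 calls, and CLCB lost its call (0.64, adjusted p = 0.0516). The number called in the siroheme, asparagine, root-type and leaf-type lists was as before.

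Markers of cell types were read as a check of the label. Summed over 4 mesophyll markers, levels were 260 to 530 CPM in the light and 5.18 to 14.6 CPM in the dark, with LHCB1.3, RBCS1A and RCA called lower and CA1 too low to be tested. Epidermis markers summed to at most 0.312 CPM with PDF1 at 0, and phloem markers to at most 0.467 CPM with APL at 0. Guard cell markers summed to 1.06 to 4.40 CPM in the light and 2.09 to 6.77 CPM in the dark, with FAMA at or near 0. The 2 root hair markers summed to 5.25 to 9.09 CPM in the light and 15.7 to 18.7 CPM in the dark, where RHD6 was called higher (log2 fold change 2.69, adjusted p = 0.0297, called in 3 of 8 fits without 1 library) and COBL9 was not (0.46, adjusted p = 0.342). The 3 markers of dividing cells summed to 109 to 181 CPM in the light and 64.7 to 130 CPM in the dark, with 0 called. The 3 tested mesophyll markers and RHD6 thus moved with growth condition beside NIR1, and their part in its change was not tested.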

How the data were processed

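RNA was sequenced in 4 light-grown and 4 dark-grown libraries. The authors aligned paired reads of 50 bases to the TAIR10 genome (TopHat2, Araport11 gene models) and deposited HTSeq counts per gene, not normalized. Versions, counting mode and strand are not given in the sources used here. A further table deposited by the authors, with their own fold changes and p-values, was not used.

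Counts were tested with edgeR 4.0.16 (R 4.3.3; TMM, filterByExpr with minimum count 10 and minimum total 15, robust quasi-likelihood fits, Benjamini-Hochberg over 19129 genes). Single genes also had an exact permutation test of log2(CPM + 0.5). Library depth of 18363149 to 37813411 counts sets the precision, and the floor of 3 counts covers counting error only. The fit was tested on simulated data. Levels per kb used exon lengths from RefSeq TAIR10.1, to which 27636 of 28598 identifiers matched. DESeq2 1.42.0 was an alternative, beside other scalings and filters, a replicate block and fits without libraries. Summaries used Python 3.11.15.

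The members and gene lists were chosen with earlier results of these data known. Named are the 10 genes and, of each list, up to 3 called genes with the largest change and the gene with the highest level per length. That level is the mean over all libraries, so the order can differ within 1 growth condition. Libraries of 1 condition differed by 23.7 to 132 times sampling variance per gene, which is above counting noise and does not tell separate cultures from repeat preparations.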

Additional observations from a re-analysis of the deposited data

Results flagged for a closer look

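Of 20 sets of 4 libraries (10 genes in each growth condition), 1 held a library far from the others, and chance gives 1 in 20. GLN2, the plastid glutamine synthetase, was at 108 CPM in Light-RNA4, whereas the other light-grown libraries held 83.9 to 87.3 CPM. The gap was 0.856 of the range, above Dixon's 95% critical value. Without Light-RNA4 the log2 fold change of GLN2 kept its sign, and it did not pass the threshold in any fit.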

How the results depend on the processing

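Genes called over the whole table numbered 1912 of 19129 tested. With single libraries left out they ranged from 962 of 19347 to 2873 of 19350. They numbered 4850 of 19252 without both Light-RNA4 and Dark-RNA2, and 3356 of 21225 with DESeq2. Beside these shares of all genes, 0 to 2 of the 10 genes were called with single libraries left out and 3 without both libraries. With DESeq2, 2 of the 10 genes were called, NIR1 and GLN1.3. The cause of these differences between fits was not tested. Under the other scalings and filters 1 of the 10 genes was called. The log2 fold change of NIR1 was above 0 in all 16 alternatives and called in 11.

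Signs reversed only in fits without libraries. Without Light-RNA4 GSR2 was at 0.03, and without Dark-RNA1 ATGSR1 (GLN1;1) was at -0.04 and GLT1 at -0.01. Without Dark-RNA2 NIA2 was at 0.03 and GLN2 at 0.01. Without both Light-RNA4 and Dark-RNA2 NIA2 was at 0.13, GLN2 at 0.10 and GSR2 at 0.20. None of these passed the threshold. With single libraries left out, the log2 fold changes ranged from -0.27 to 0.03 for NIA2, -0.54 to 0.01 for GLN2, -0.04 to 0.28 for ATGSR1, -0.49 to 0.03 for GSR2 and -0.01 to 0.30 for GLT1.

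Replicate numbers were not shown to pair the libraries, since deviations of same-numbered libraries correlated at -0.144, 0.582, -0.025 and 0.219. In a fit with replicate blocks, 2221 genes were called, 1607 of them shared with the fit without it. NIR1 was at 1.10 (edgeR adjusted p = 0.0719) and GLU1 at -1.61 (adjusted p = 0.00685), so 1 of the 10 genes was called, GLU1 in place of NIR1. Not every library correlated best with its own number.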
